A study of Homo sapiens with 12 samples.

Results

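The effect of losing HIF1α alone was read from 6 of 12 mRNA-seq libraries of U-87 MG (U87), an established human glioblastoma cell line. The 3 vector libraries came from U87 cells that carried an empty vector, and the 3 HIF1α-ko libraries from U87 cells in which HIF1α was knocked out. Both groups were kept under hypoxia, which the series' design text gives as 1% O2 for 72 h, while the study's general methods give a shorter time for mRNA work. The remaining 6 libraries were 3 of a HIF2α-ko group and 3 of a HIF1α/2α-ko group that lacked both factors, also under hypoxia, and are used here in the shared filter and model and to ask whether losing HIF1α gave like values elsewhere. No library from cells at normal oxygen is analysed here, so every value below is a difference between genotypes under hypoxia. How the knockouts were made and whether a group is 1 clone or a pool are not given in the sources used here, nor is whether the 3 libraries of a group came from separate cultures. The p-values therefore measure the spread between libraries, which may be technical.

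HIF1α, encoded by HIF1A, is the oxygen-regulated subunit of hypoxia-inducible factor. In oxygen, prolyl hydroxylases mark it for degradation, and in hypoxia it accumulates, pairs with ARNT and binds a short core motif near its target genes. Its best known targets carry glucose through glycolysis, store it as glycogen, remove mitochondria by mitophagy and promote vessel growth. HIF2α, encoded by EPAS1, pairs with the same partner and shares part of the target set. Expression was measured as TPM, in which read counts are divided by transcript length and scaled to the same total in every library. Of the 20263 genes listed, 11731 reached 1 TPM in at least 3 of the 12 libraries and were tested, all of them in 1 linear model (limma) of the 4 groups on log2(TPM + 1). A gene is called when its p, adjusted over all tested genes by the Benjamini-Hochberg method, is under 0.05, and the verbs rose and fell are kept for called genes. Fold changes on this scale understate the change of low genes. The number of reads behind a TPM value is not known here, so no counting error is given, and a 0 is only listed as 0.

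Vector replicate 1 stood apart from the other vector libraries. Its correlation with them over the tested genes was 0.966 to 0.968 on the log2(TPM + 1) scale, whereas vector replicates 2 and 3 correlated at 0.989 and the HIF1α-ko libraries at 0.982 to 0.991. A log2 difference of at least 1 separated it from vector replicates 2 and 3 in 884 and 907 genes, against 174 genes between those 2. It was above the mean of vector replicates 2 and 3 by that much in 571 genes and below it in 216. In 271 and 92 of these, the HIF1α-ko mean also lay at least a log2 of 1 from that mean, on the same side. COL1A2, a chain of type I collagen, was listed at 261, 47.2 and 49.9 TPM in vector replicates 1 to 3 and at 275, 264 and 261 TPM in HIF1α-ko. COL1A2 carried most of the summed level of the 4 fibroblast and mesenchymal markers COL1A1, COL1A2, DCN and PDGFRB, which ran 342, 92.6 and 92.9 TPM in vector and 314 to 347 TPM in HIF1α-ko. COL1A1 was at 26.8, 16.5 and 19.9 TPM in vector and 21.2 to 23.2 TPM in HIF1α-ko, and DCN at 5.77, 2.13 and 0.762 TPM and 1.53 to 2.31 TPM, so vector replicate 1 was above the knockouts in both. The 6 genes with the largest gap between vector replicate 1 and the mean of the other 2 were APOLD1, ENSG00000144785 and TAGLN, where it was lower, and CCL20, MT-ATP8 and MT-ATP6, where it was higher. TAGLN, an actin-binding protein of smooth muscle, was at 1.82, 17.96 and 17.1 TPM in vector and 4.41, 3.81 and 4.55 TPM in HIF1α-ko, and passed only without vector replicate 1 (log2 fold change -1.82, adjusted p = 0.00202, against -0.92 and 0.264). ENSG00000144785, which overlaps CNPY2 and CS, was at 0, 2.73 and 13.7 TPM in vector and 1.06, 2.92 and 2.07 TPM in HIF1α-ko. The part of vector replicate 1 in any result was not tested, so the named genes and the gene lists are also given without it.

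The genes CDKN2A and CDKN2B, which U87 cells lack, were listed at 0 in all 6 libraries. Of 4 markers each, the microglial sum reached at most 0.172 TPM with P2RY12 at 0, the endothelial sum 6.64 TPM with CLDN5 at 0, the oligodendrocyte sum 1.34 TPM with MOG and MOBP at 0, and the neuronal sum 9.28 TPM, most of it SNAP25 and SLC17A7, with RBFOX3 at or under 0.317 TPM. Of the astrocyte markers, ALDH1L1 was at 17.4 to 47.8 TPM while AQP4 was at 0 and GFAP stayed at or under 0.639 TPM. Each library listed 10739 to 11388 genes at 1 TPM or more, and its 10 highest genes held 19.2% to 21.5% of the total. Mitochondrially encoded genes held 3.17%, 0.517% and 0.836% of the total in vector and 1.72%, 0.912% and 0.747% in HIF1α-ko. The group means, 1.51% ± 1.45 and 1.12% ± 0.518 (SD, n = 3 each), were not told apart by an exact two-sided permutation test (p = 0.9, where 0.1 is the smallest the design allows).

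HIF1A itself, on chr14:61695513-61748259 of GRCh38, plus strand, was measured first. Its level was 112, 110 and 152 TPM in vector and 57.3, 49.5 and 38.6 TPM in HIF1α-ko, so all 3 knockout libraries lay under all 3 vector libraries (log2 fold change -1.34, SE 0.20, adjusted p = 0.000852, and -1.41 without vector replicate 1). The transcript was thus lowered but not lost, and TPM over the whole gene does not show whether the remaining transcripts can be translated. Among the partners and sensors, EGLN1, the main prolyl hydroxylase acting on HIF1α, fell from 15.4, 21.6 and 23.9 TPM to 4.46, 6.91 and 6.803 TPM (log2 fold change -1.59, SE 0.21, adjusted p = 0.000572, and -1.77 without vector replicate 1). EPAS1 was at 286, 333 and 346 TPM in vector and 251, 288 and 255 TPM in HIF1α-ko (-0.28, adjusted p = 0.168, and -0.36 without vector replicate 1), and passed after median ratio scaling (log2 -0.48, adjusted p = 0.0204) and, without vector replicate 1, after that scaling or quantile normalization (adjusted p = 0.00285 and 0.0434). ARNT, the shared partner, was at 29.8, 38.6 and 32 TPM in vector and 21.2, 26.96 and 23.8 TPM in HIF1α-ko (log2 fold change -0.46, SE 0.15, adjusted p = 0.0394, and -0.54 without vector replicate 1), and its call was lost when any library other than vector replicate 1 was left out, with adjusted p up to 0.147. Of the 5 tested genes on each side of HIF1A, 3 were called. Of all 11731 tested genes 3060 were called, so this count is not read as a result about the locus. SNAPC1, the next gene downstream, fell from 37.4, 55.6 and 70.97 TPM to 21.02, 18.9 and 14.8 TPM (log2 fold change -1.50, adjusted p = 0.000557, and -1.74 without vector replicate 1). SGPP1 was higher by a log2 of 0.78 (adjusted p = 0.0297, and 0.93 without vector replicate 1), a call lost with any of vector replicates 2 and 3 and HIF1α-ko replicates 2 and 3 left out. ENSG00000258989, which overlaps PRKCH, had a log2 difference of -0.89 (adjusted p = 0.00852, and -1.11 without vector replicate 1).

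Over all genes, 2031 were called higher in HIF1α-ko than in vector (17.3% of those tested) and 1029 lower (8.77%). Of these, 480 and 334 differed by a log2 of at least 1. In 1948 of the higher and 980 of the lower genes the 3 libraries of one group lay wholly on one side of the other group. These genes were called from the same libraries, so this adds no support, and the share over all tested genes is not given here. With the libraries of these 2 groups alone in the fit the counts of called genes were 1415 and 726. Without vector replicate 1 they were 2828 and 1366. Leaving out vector replicate 2 gave 1136 and 678, vector replicate 3 1069 and 579, HIF1α-ko replicate 2 1035 and 657, and HIF1α-ko replicate 3 1010 and 542. The calls of 837 higher and 488 lower genes held whichever of the 6 libraries was left out. No gene was at 5 TPM or more in every library of one group and under 1 TPM in every library of the other. In bulk RNA, fewer cells of a kind and less RNA per cell cannot be told apart.

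The split between higher and lower depended on how the libraries were scaled. With TPM as deposited, 66.4% of called genes were higher and the log2 fold change had a median of 0.18 over the tested genes. After median ratio scaling that median was 0.01, the counts were 1285 higher and 1545 lower, and 45.4% were higher. Quantile normalization gave 1581 and 1507, or 51.2% higher. The medians of gene lists below are therefore given as differences from this overall median. A stricter set of 1257 higher genes (10.7%) and 950 lower genes (8.10%) was called with all libraries, without vector replicate 1 and after median ratio scaling. The share of lower genes grew with expression, from 5.85% of genes under 2 TPM to 16.1% of those at 100 TPM or more, and the share of higher genes ran from 15.1% to 20.4%. Over the autosomes the relative median stayed between -0.07 and 0.12, the last on chromosome 22, where 23.02% of 291 genes were higher and 6.87% lower.

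**Figure D1:**
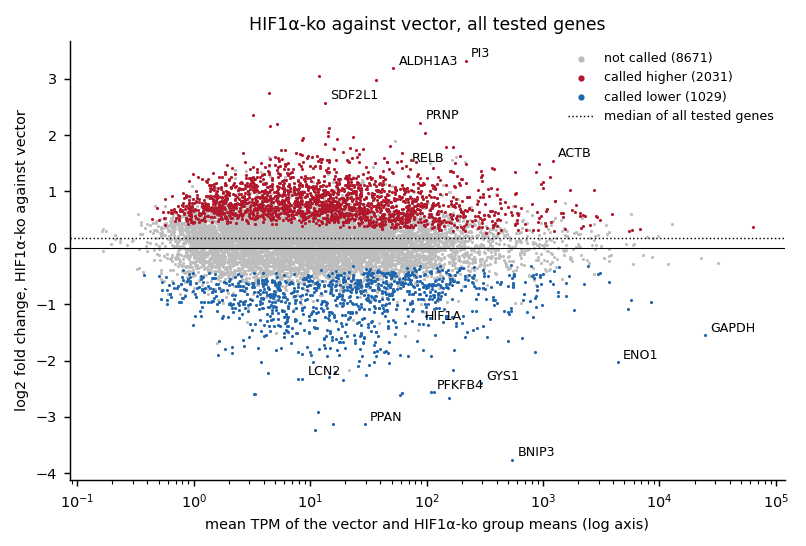
Log2 fold change of HIF1α-ko against vector (y axis, on log2(TPM + 1)) against the mean of both group means in TPM (x axis, log axis) for the 11731 tested genes, with the 2031 called higher in red, the 1029 called lower in blue and the rest in grey. The dotted line is the median of all tested genes, at 0.18, and BNIP3 lies lowest.

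The 15 largest falls that kept their call in the stricter set, with no overlap between groups, were led by BNIP3. BNIP3, a mitophagy receptor on the outer mitochondrial membrane, was listed at 645, 1123 and 1289 TPM in vector and 63.1, 80.05 and 72 TPM in HIF1α-ko (log2 fold change -3.76, SE 0.20, adjusted p = 1.97e-06, and -4.06 without vector replicate 1). The lowest vector library was still far above the highest knockout library. APOLD1, an endothelial early-response gene, went from 1.17, 36.8 and 26.9 TPM to 0.513, 0.279 and 0.422 TPM, with vector replicate 1 nearest the knockouts (log2 fold change -3.23, SE 1.00, adjusted p = 0.0336, and -4.53 without vector replicate 1). The call of APOLD1 was lost when any other library was left out, with adjusted p up to 0.134, and its log2 fold change was -2.47 without vector replicate 2. PPAN, a ribosome assembly factor, was at 53.96, 64.2 and 42.8 TPM in vector and 6.89, 4.66 and 4.21 TPM in HIF1α-ko (log2 fold change -3.13, SE 0.18, adjusted p = 1.97e-06, and -3.12 without vector replicate 1), and it shares exons with the read-through gene PPAN-P2RY11, so its reads cannot be assigned with certainty. HOXA4, a homeobox transcription factor, was at 12.4, 26.2 and 48.04 TPM in vector and 0.787, 5.02 and 1.503 TPM in HIF1α-ko (log2 fold change -3.13, SE 0.69, adjusted p = 0.00739, and -3.61 without vector replicate 1). GPR146, an orphan receptor tied to lipoprotein metabolism, fell from 8.47, 27.7 and 27.8 TPM to 0.502, 2.297 and 2.696 TPM (log2 fold change -2.91, SE 0.43, adjusted p = 0.000884, and -3.45 without vector replicate 1).

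Sugar metabolism supplied 3 of these 15. PFKFB3 and PFKFB4 make fructose 2,6-bisphosphate, the strongest activator of phosphofructokinase, and GYS1 is the glycogen synthase of muscle and most other tissues. PFKFB3 was at 58.7, 125 and 125 TPM in vector and 15.2, 15.3 and 14.5 TPM in HIF1α-ko (log2 fold change -2.62, SE 0.28, adjusted p = 0.000201, and -2.98 without vector replicate 1). PFKFB4 was at 139, 215 and 212 TPM in vector and 30.8, 29.1 and 31.7 TPM in HIF1α-ko (log2 fold change -2.56, SE 0.16, adjusted p = 3.28e-06, and -2.77 without vector replicate 1). GYS1 was at 419, 530.4 and 520.1 TPM in vector and 88.5, 96.9 and 89.1 TPM in HIF1α-ko (log2 fold change -2.40, SE 0.14, adjusted p = 1.97e-06, and -2.51 without vector replicate 1). In each of the 3 the knockout libraries were tightly spaced and vector replicate 1 was the lowest vector library. FAM162A, a mitochondrial protein tied to cell death in hypoxia, went from 217, 142 and 230 TPM to 37.99, 41.5 and 20.4 TPM (log2 fold change -2.55, SE 0.26, adjusted p = 0.0001397, and -2.47 without vector replicate 1). PPFIA4, a liprin of cell adhesion complexes, was at 33.8, 32.6 and 31.7 TPM in vector and 5.87, 7.12 and 4.15 TPM in HIF1α-ko (log2 fold change -2.35, SE 0.19, adjusted p = 2.53e-05, and -2.33 without vector replicate 1), with no vector library apart from the rest.

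Others of the largest falls have different roles. PLK1, a kinase of mitosis, was at 156, 322 and 316 TPM in vector and 82.4, 22.3 and 31.8 TPM in HIF1α-ko (log2 fold change -2.66, SE 0.52, adjusted p = 0.00381, and -3.00 without vector replicate 1), and HIF1α-ko replicate 1 lay well above the other knockouts without reaching the vector libraries. ITIH1, a heavy chain that binds hyaluronan, fell from 2.73, 9.28 and 7.63 TPM to 0.176, 0.0602 and 0.231 TPM (log2 fold change -2.58, SE 0.31, adjusted p = 0.000308, and -3.03 without vector replicate 1). ZP1, a glycoprotein of the egg coat, was at 80.1, 128 and 111 TPM in vector and 25.3, 12.4 and 15.1 TPM in HIF1α-ko (log2 fold change -2.57, SE 0.23, adjusted p = 7.23e-05, and -2.76 without vector replicate 1). LCN2, an iron-trapping lipocalin, was at 6.06, 19.2 and 19.6 TPM in vector and 4.29, 0.961 and 1.27 TPM in HIF1α-ko (log2 fold change -2.32, SE 0.50, adjusted p = 0.00624, and -2.83 without vector replicate 1), and here the gap between the lowest vector and the highest knockout library was small. Over all 15, vector replicate 1 was the vector library nearest to HIF1α-ko in 12, against 64.3% of all genes called lower, and the same held in 13 of the 15 largest rises against 67.3% of all genes called higher.

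**Figure D2:**
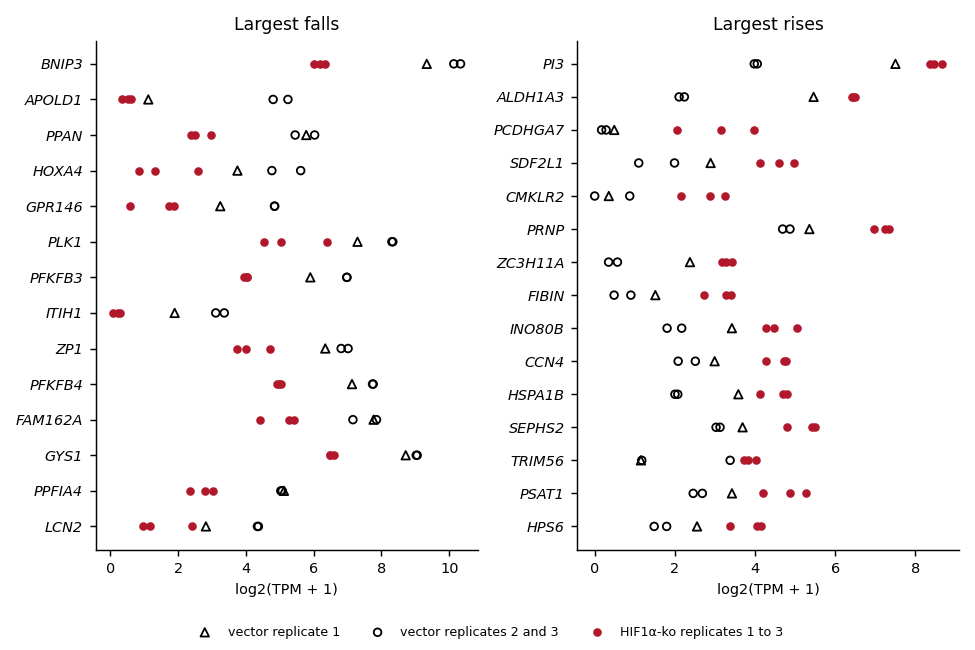
Log2(TPM + 1) of the genes described above and below among the largest falls (left) and largest rises (right) in each of the 6 libraries, with vector replicate 1 as a triangle, vector replicates 2 and 3 as open circles and the HIF1α-ko libraries as filled red circles. By the rule for naming, all red circles lie on one side of all black symbols in every gene shown. The triangle is the black symbol nearest to red in most of them.

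Since the HIF pair binds the core letters ACGTG, the RefSeq promoter windows (GRCh38.p14, 250 bases before to 50 after the start of the gene) were searched for ACGTG on either strand. A window was matched for 9440 of the 11731 tested genes. It held the letters in 263 of 831 lower genes (31.7%), 445 of 1647 higher genes (27.0%) and 1866 of 6962 genes that were not called (26.8%). Of lower genes with a log2 fold change of -1 or less the share was 35.9%, of higher genes past 1 it was 27.4%, and of all 27195 promoters in the table it was 21.6%. Without vector replicate 1 the shares were 32.4% of lower and 25.3% of higher genes, and after median ratio scaling 31.1% and 27.6%. GCGTG, the other common form of the core, was in 49.0% of lower, 52.3% of higher and 50.8% of uncalled genes, and in 36.4% of all promoters. These are descriptions of letters in a window, not of binding.

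Of the 15 falls, 6 held ACGTG in the 250 bases before the RefSeq start, and in 5 of these it was read on both strands, as the palindrome CACGTG. The 6 windows of 50 bases around the match are printed to show the match in its surroundings, 5′ to 3′ on the strand of the gene, with the matched letters in capitals. They are chr10:131982029-131982078 (BNIP3, minus strand), chr7:27130929-27130978 (HOXA4, minus), chr16:23678670-23678719 (PLK1, plus), chr11:60867354-60867403 (ZP1, plus), chr3:122384076-122384125 (FAM162A, plus) and chr1:203026351-203026400 (PPFIA4, plus). The window of PLK1 lies before its RefSeq start but inside the longer gene model of GENCODE 29, which begins at base 23677656.
BNIP3: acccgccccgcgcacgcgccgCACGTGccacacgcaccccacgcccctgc
HOXA4: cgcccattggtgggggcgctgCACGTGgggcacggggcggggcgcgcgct
PLK1: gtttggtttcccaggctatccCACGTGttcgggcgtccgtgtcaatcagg
ZP1: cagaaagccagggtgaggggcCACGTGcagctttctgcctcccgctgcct
FAM162A: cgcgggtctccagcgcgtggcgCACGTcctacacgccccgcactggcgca
PPFIA4: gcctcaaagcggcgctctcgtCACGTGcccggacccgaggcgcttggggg
No match before the start was found for APOLD1, PPAN, GPR146, PFKFB3, ITIH1, PFKFB4, GYS1 and LCN2, which says only that these letters are not in those 250 bases. GPR146 held 2 matches in its whole window of 300 bases, none of them before the start. The shares of promoters given above cover the whole window, so the 6 of 15 cannot be set beside them. Among the 15 rises the palindrome was present in ZC3H11A (chr1:203795489-203795538, plus strand) and SEPHS2 (chr16:30446009-30446058, minus strand), printed for comparison, the latter again inside the GENCODE 29 gene model.
ZC3H11A: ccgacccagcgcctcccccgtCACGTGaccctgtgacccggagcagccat
SEPHS2: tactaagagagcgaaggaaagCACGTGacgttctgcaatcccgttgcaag
PI3, PRNP, FIBIN and CCN4 were not matched to a window, and the other 9 rises held no match before the start. The letters were thus present before the start of genes that fell and of genes that rose.

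The 15 largest rises were led by 2 genes in which vector replicate 1 stood between the groups. PI3, the elastase inhibitor elafin, was at 180.1, 15.6 and 14.8 TPM in vector and 404, 329 and 353 TPM in HIF1α-ko (log2 fold change 3.32, SE 0.68, adjusted p = 0.00494, and 4.48 without vector replicate 1), or 2.72 without vector replicate 3. ALDH1A3, which oxidises retinal to retinoic acid, was at 42.98, 3.71 and 3.302 TPM in vector and 85.5, 88.9 and 84.96 TPM in HIF1α-ko (log2 fold change 3.18, SE 0.67, adjusted p = 0.00568, and 4.28 without vector replicate 1), or 2.60 at the lowest with 1 library left out. In both genes vector replicates 2 and 3 were close together and vector replicate 1 was many times higher, yet under every knockout library. PRNP, the prion protein, showed no such gap, at 39.9, 28.2 and 24.8 TPM in vector and 125, 161 and 151 TPM in HIF1α-ko (log2 fold change 2.22, SE 0.23, adjusted p = 0.000156, and 2.41 without vector replicate 1). CCN4, a secreted matricellular target of Wnt signalling, was at 6.95, 3.23 and 4.698 TPM in vector and 18.3, 25.2 and 26.2 TPM in HIF1α-ko (log2 fold change 2.06, SE 0.24, adjusted p = 0.000263, and 2.29 without vector replicate 1). FIBIN, a secreted protein of fin development, rose from 1.85, 0.399 and 0.869 TPM to 5.58, 8.65 and 9.64 TPM (log2 fold change 2.17, SE 0.36, adjusted p = 0.00185, and 2.44 without vector replicate 1).

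The next 4 rises encode a chaperone, a chaperone partner and 2 enzymes. SDF2L1, an endoplasmic reticulum chaperone partner, was at 6.42, 2.98 and 1.14 TPM in vector and 16.5, 23.1 and 30.5 TPM in HIF1α-ko (log2 fold change 2.57, SE 0.36, adjusted p = 0.000715, and 3.02 without vector replicate 1). HSPA1B, a heat-inducible chaperone of the cytosol, was at 10.98, 3.204 and 3.01 TPM in vector and 16.5, 26.97 and 24.9 TPM in HIF1α-ko (log2 fold change 1.99, SE 0.38, adjusted p = 0.00338, and 2.51 without vector replicate 1), and its near-identical copy HSPA1A makes its reads hard to assign. PSAT1, a transaminase of serine synthesis, was at 9.73, 4.49 and 5.43 TPM in vector and 17.4, 28.5 and 37.4 TPM in HIF1α-ko (log2 fold change 1.93, SE 0.35, adjusted p = 0.00267, and 2.21 without vector replicate 1). SEPHS2, which makes the selenium donor for selenoproteins, was at 11.9, 7.15 and 7.73 TPM in vector and 26.8, 41.9 and 44.4 TPM in HIF1α-ko (log2 fold change 1.96, SE 0.42, adjusted p = 0.00603, and 2.16 without vector replicate 1). As the rule for naming required of every rise, the lowest knockout library was above the highest vector library in all 4.

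The other 6 rises are less certain. PCDHGA7, a clustered protocadherin, was at 0.403, 0.218 and 0.127 TPM in vector and 14.8, 7.93 and 3.12 TPM in HIF1α-ko (log2 fold change 2.75, SE 0.63, adjusted p = 0.00889, and 2.83 without vector replicate 1), but shares its last exons with the other genes of its cluster. INO80B, a chromatin remodelling subunit, was at 9.72, 2.495 and 3.5 TPM in vector and 18.3, 21.04 and 31.8 TPM in HIF1α-ko (log2 fold change 2.12, SE 0.48, adjusted p = 0.00781, and 2.60 without vector replicate 1) and overlaps INO80B-WBP1. CMKLR2, a chemerin receptor, was at 0.276, 0.833 and 0 TPM in vector and 3.47, 6.39 and 8.46 TPM in HIF1α-ko (log2 fold change 2.35, SE 0.58, adjusted p = 0.0123, and 2.33 without vector replicate 1), and its call was lost without vector replicate 3 or HIF1α-ko replicate 3. ZC3H11A, an mRNA export factor that overlaps ZBED6, was at 4.19, 0.272 and 0.482 TPM in vector and 8.61, 8.06 and 9.696 TPM in HIF1α-ko (log2 fold change 2.19, SE 0.71, adjusted p = 0.0401, and 2.83 without vector replicate 1), and its call was lost without any one of the 5 other libraries. TRIM56, a ubiquitin ligase of innate immunity, was at 1.22, 1.26 and 9.39 TPM in vector and 12.1, 15.2 and 13.2 TPM in HIF1α-ko (log2 fold change 1.95, SE 0.48, adjusted p = 0.0122, and 1.58 without vector replicate 1), and its call was lost without vector replicate 2, while its log2 fold change was 2.69 without vector replicate 3. HPS6, a subunit of a lysosome biogenesis complex, was at 4.87, 2.47 and 1.796 TPM in vector and 9.398, 15.4 and 16.7 TPM in HIF1α-ko (log2 fold change 1.91, SE 0.50, adjusted p = 0.0155, and 2.21 without vector replicate 1), and lost its call when any of vector replicates 2 and 3 and HIF1α-ko replicates 2 and 3 was left out. The highest adjusted p with 1 library left out was 0.0556 for CMKLR2, 0.142 for ZC3H11A, 0.0573 for TRIM56 and 0.0662 for HPS6.

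Gene lists were then read by role, 39 in all, each by its counts beside the 17.3% higher and 8.77% lower of all tested genes and by its median relative to all genes. Those shares belong to the fit of all libraries. Of all 11731 genes, 2828 were higher and 1366 lower without vector replicate 1, and 1285 and 1545 after median ratio scaling. Where leaving out another library moved a count of at least 3 by over 1.5 times, that library is named in short (vector 2 for vector replicate 2) with the count it left. The HIF subunits and oxygen sensors, some of them described above, counted 1 higher and 4 lower of 10 tested (3 and 4 without vector replicate 1, 0 and 5 after median ratio scaling, 2 lower with vector 2, vector 3, HIF1α-ko 1 or HIF1α-ko 3 left out). Their relative median was -0.18, or -0.21 without vector replicate 1. Genes of glucose use had the lowest medians. In the list of glycolysis and glucose transport, 1 of the 25 tested members were called higher and 18 lower (1 and 18 without vector replicate 1, 0 and 18 after median ratio scaling), and with any 1 library left out the counts were 0 to 1 higher and 17 to 18 lower. Its relative median was -1.26, or -1.39 without vector replicate 1. ENO1, the enolase, went from 6107, 7449 and 7593 TPM to 1982, 1556 and 1637 TPM (log2 fold change -2.03, SE 0.12, adjusted p = 2.81e-06, and -2.13 without vector replicate 1). PGAM1, a phosphoglycerate mutase, went from 995, 983 and 968 TPM to 391, 283 and 309 TPM (log2 fold change -1.59, SE 0.12, adjusted p = 1.79e-05, and -1.58 without vector replicate 1). GAPDH, often used as a reference gene, went from 30270, 40640 and 38240 TPM to 14440, 11360 and 11410 TPM (log2 fold change -1.55, SE 0.15, adjusted p = 0.000103, and -1.68 without vector replicate 1). Summed, the 25 genes held 64360, 82030 and 78610 TPM in vector and 37540, 32020 and 31730 TPM in HIF1α-ko. Since TPM adds up to a fixed total, what these genes no longer took was shared out among the others. How much this adds to the overall median was not tested.

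Glycogen genes moved with them. In that list 1 of the 11 tested members were called higher and 5 lower (2 and 5 without vector replicate 1, 1 and 6 after median ratio scaling), and the relative median was -0.57, or -0.65 without vector replicate 1. Beside GYS1, PGM1, which links glucose 1-phosphate and glucose 6-phosphate, went from 159.7, 192 and 179.7 TPM to 64.98, 60.2 and 54.5 TPM (log2 fold change -1.55, SE 0.12, adjusted p = 1.93e-05, and -1.62 without vector replicate 1). PPP1R3C, which targets a phosphatase to glycogen, went from 170.1, 251 and 280.4 TPM to 86.6, 107 and 97.98 TPM (log2 fold change -1.23, SE 0.21, adjusted p = 0.00209, and -1.44 without vector replicate 1). PPP1R3B, of the same family, was at 83.1, 82.7 and 99.8 TPM in vector and 50.5, 53.1 and 50.8 TPM in HIF1α-ko (log2 fold change -0.77, SE 0.13, adjusted p = 0.002298, and -0.81 without vector replicate 1).

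**Figure D3:**
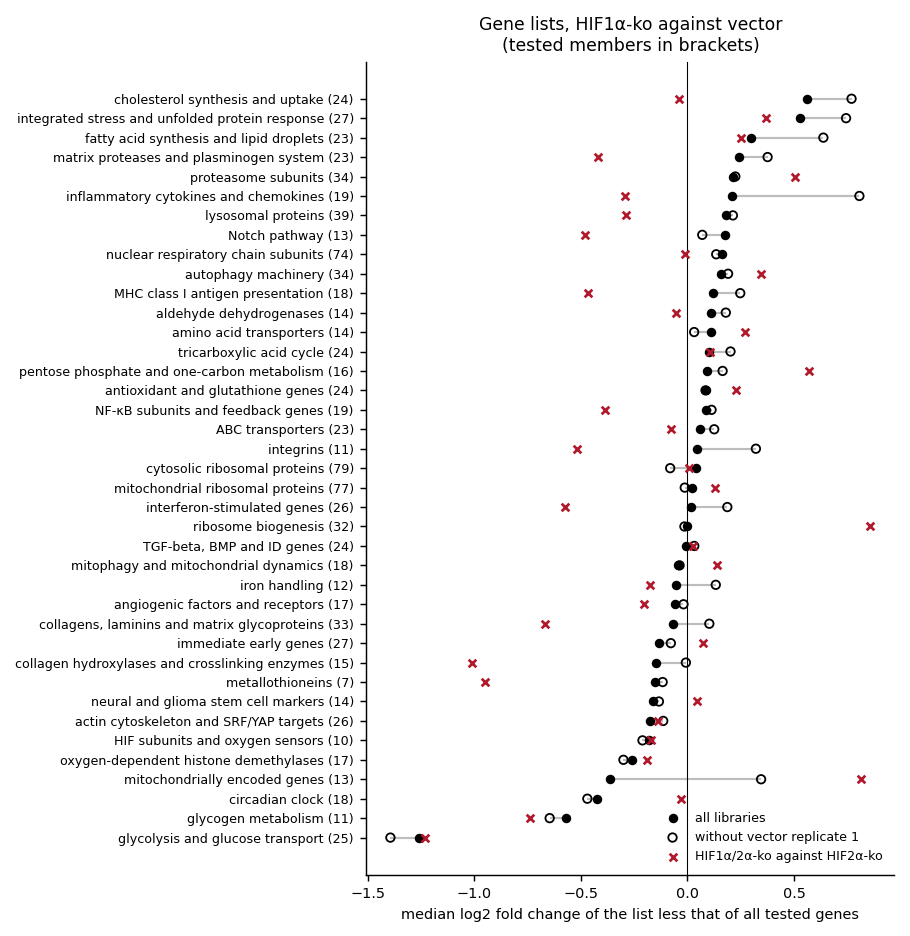
Median log2 fold change of each of the 39 gene lists less the overall median (x axis) in HIF1α-ko against vector with all libraries (filled circles) and without vector replicate 1 (open circles), and in HIF1α/2α-ko against HIF2α-ko (red crosses), with the number of tested members in brackets. Glycolysis lies lowest at -1.26, and the open circle of the cytokine list lies furthest from its filled circle among the lists encoded in the nucleus.

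Mitochondrial genes rose in part, and the counts rested on the scaling. Of the nuclear respiratory chain subunits, 31 of the 74 tested members were called higher and 1 lower (31 and 3 without vector replicate 1, 13 and 3 after median ratio scaling, 15 to 18 higher with vector 3 or HIF1α-ko 3 left out), with a relative median of 0.16, or 0.14 without vector replicate 1. Complex I subunits gave the smallest p. NDUFS3 was at 46.6, 40.4 and 42.7 TPM in vector and 85.9, 83.7 and 91.3 TPM in HIF1α-ko (log2 fold change 0.99, SE 0.11, adjusted p = 0.0002399, and 1.05 without vector replicate 1). NDUFAB1 was at 51.1, 45.7 and 49.5 TPM in vector and 88.3, 88.6 and 93.1 TPM in HIF1α-ko (log2 fold change 0.87, SE 0.11, adjusted p = 0.000435, and 0.91 without vector replicate 1). NDUFA1 was at 87.1, 67.8 and 70.5 TPM in vector and 134, 149 and 194 TPM in HIF1α-ko (log2 fold change 1.06, SE 0.16, adjusted p = 0.0008695, and 1.17 without vector replicate 1) and NDUFB1 at 42.02, 33.6 and 31.3 TPM in vector and 60.6, 61.8 and 65.2 TPM in HIF1α-ko (log2 fold change 0.81, SE 0.14, adjusted p = 0.00192, and 0.93 without vector replicate 1). None of these 4, which were picked by smallest p, had overlapping groups, and vector replicate 1 was within the vector spread or slightly above it.

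In the tricarboxylic acid cycle list, 4 of the 24 tested members were called higher and 1 lower (6 and 1 without vector replicate 1, 2 and 2 after median ratio scaling). MPC1, a subunit of the pyruvate carrier into mitochondria, rose from 13.2, 9.24 and 7.34 TPM to 19.3, 25.8 and 24.5 TPM (log2 fold change 1.17, SE 0.19, adjusted p = 0.00173, and 1.38 without vector replicate 1). PDHB, of pyruvate dehydrogenase, was at 33.9, 19.7 and 19.1 TPM in vector and 50.2, 44.8 and 42.2 TPM in HIF1α-ko (log2 fold change 0.93, SE 0.20, adjusted p = 0.00611, and 1.19 without vector replicate 1). SDHA, of succinate dehydrogenase, was at 99.8, 102 and 88.7 TPM in vector and 157, 143 and 142 TPM in HIF1α-ko (0.60, adjusted p = 0.00318, and 0.63 without vector replicate 1), a call that was lost after median ratio scaling (adjusted p = 0.0891). IDH3G, of isocitrate dehydrogenase, fell from 134, 165 and 140.1 TPM to 97.7, 70.5 and 76.3 TPM (log2 fold change -0.84, SE 0.14, adjusted p = 0.00202, and -0.90 without vector replicate 1). Of the 13 mitochondrially encoded genes, limma called 0 in either direction, and 0 had an unadjusted p under 0.05. Their relative median was -0.36 with all libraries and 0.35 without vector replicate 1, so its sign changed when that library was left out. MT-ATP8 was at 617, 31.1 and 67.1 TPM in vector and 91, 62.1 and 30.9 TPM in HIF1α-ko and MT-ATP6, which overlaps it, at 350.3, 39.4 and 0.0791 TPM in vector and 160, 53.6 and 42.9 TPM in HIF1α-ko. Without vector replicate 1, MT-ATP6 alone of the list passed (log2 fold change 3.46, adjusted p = 0.0362), and its vector libraries differed by far more than the groups.

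In mitophagy and mitochondrial dynamics, 2 of the 18 tested members were called higher and 2 lower (3 and 4 without vector replicate 1, 1 and 3 after median ratio scaling). BNIP3L, the close relative of BNIP3, fell from 75.8, 72.3 and 104 TPM to 35.7, 49.8 and 45.5 TPM (log2 fold change -0.92, SE 0.20, adjusted p = 0.006001, and -0.99 without vector replicate 1), and MFN2, a mitochondrial fusion protein, rose from 15.9, 14.9 and 14.8 TPM to 22.6, 24.6 and 23.6 TPM (log2 fold change 0.60, SE 0.12, adjusted p = 0.00527, and 0.63 without vector replicate 1). The mitochondrial ribosomal proteins counted 17 higher and 5 lower of 77 tested (19 and 7 without vector replicate 1, 10 and 7 after median ratio scaling, 11 higher with HIF1α-ko 3 left out, 3 lower with vector 2, vector 3 or HIF1α-ko 3 left out), with a relative median of 0.02 that was -0.01 without vector replicate 1. The cytosolic ribosomal proteins counted 20 higher and 4 lower of 79 tested (14 and 8 without vector replicate 1, 2 and 6 after median ratio scaling, 6 to 11 higher with HIF1α-ko 2 or HIF1α-ko 3 left out, 1 to 2 lower with vector 2, HIF1α-ko 2 or HIF1α-ko 3 left out). The balance of their calls turned with the scaling, as it did over all genes (1285 higher and 1545 lower after it). The relative median of these proteins was 0.04, against 0.01 after median ratio scaling and -0.08 without vector replicate 1. For ribosome biogenesis the counts were 1 higher and 1 lower of 32 tested (2 and 5 without vector replicate 1, 1 and 4 after median ratio scaling), where FBL, the methyltransferase fibrillarin, was the 1 that fell (265, 441 and 402 TPM in vector and 181, 148 and 172 TPM in HIF1α-ko, log2 fold change -1.11, SE 0.17, adjusted p = 0.00108, and -1.34 without vector replicate 1).

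Genes of the integrated stress and unfolded protein responses, which answer to amino acid shortage and to misfolded protein, were called higher more often than lower. There, 14 of the 27 tested members were called higher and 1 lower (16 and 1 without vector replicate 1, 13 and 1 after median ratio scaling, 9 higher with HIF1α-ko 2 left out), with a relative median of 0.53, or 0.74 without vector replicate 1. SESN2, a leucine sensor that restrains mTORC1, was at 13.1, 12.7 and 10.5 TPM in vector and 34.3, 44.4 and 43.9 TPM in HIF1α-ko (log2 fold change 1.67, SE 0.23, adjusted p = 0.000612, and 1.72 without vector replicate 1). DDIT3, the transcription factor CHOP, was at 95.3, 129 and 121 TPM in vector and 267, 331 and 372 TPM in HIF1α-ko (log2 fold change 1.48, SE 0.27, adjusted p = 0.00291, and 1.36 without vector replicate 1). MANF, a secreted endoplasmic reticulum protein, was at 159, 80.4 and 85.8 TPM in vector and 200.4, 291 and 274 TPM in HIF1α-ko (log2 fold change 1.28, SE 0.25, adjusted p = 0.00363, and 1.59 without vector replicate 1). Among amino acid transporters, 3 of the 14 tested members were called higher and 1 lower (4 and 1 without vector replicate 1, 3 and 1 after median ratio scaling). SLC1A5, a glutamine carrier, rose from 214, 150.3 and 155 TPM to 416, 423 and 424 TPM (log2 fold change 1.30, SE 0.14, adjusted p = 0.000161, and 1.46 without vector replicate 1), and SLC1A4, of the same family, from 3.998, 4.92 and 5.49 TPM to 8.54, 14.5 and 15.4 TPM (log2 fold change 1.22, SE 0.29, adjusted p = 0.00982, and 1.12 without vector replicate 1). SLC38A5, another glutamine carrier, fell from 4.81, 4.805 and 5.33 TPM to 2.58, 2.16 and 2.38 TPM (log2 fold change -0.83, SE 0.15, adjusted p = 0.00251, and -0.85 without vector replicate 1). In the pentose phosphate and one-carbon list, 4 of the 16 tested members were called higher and 0 lower (6 and 1 without vector replicate 1, 2 and 1 after median ratio scaling, 2 higher with vector 3, HIF1α-ko 2 or HIF1α-ko 3 left out), and PHGDH, the first enzyme of serine synthesis, was at 76.2, 90.7 and 79.5 TPM in vector and 146, 118 and 129 TPM in HIF1α-ko (log2 fold change 0.66, SE 0.11, adjusted p = 0.00209, and 0.61 without vector replicate 1).

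In both lists of lipid synthesis more members were called higher than lower, and the counts depended on single libraries. In cholesterol synthesis and uptake, 13 of the 24 tested members were called higher and 0 lower (22 and 0 without vector replicate 1, 9 and 0 after median ratio scaling, 4 to 7 higher with vector 2, vector 3, HIF1α-ko 2 or HIF1α-ko 3 left out), with a relative median of 0.56, or 0.77 without vector replicate 1. Limma called 0 members lower, also at an unadjusted p under 0.05. MVD, of the mevalonate pathway, was at 102, 66.7 and 58.5 TPM in vector and 188, 167 and 174 TPM in HIF1α-ko (log2 fold change 1.25, SE 0.17, adjusted p = 0.000557, and 1.48 without vector replicate 1). PMVK, MVK and HSD17B7, of the same route, had log2 fold changes of 0.76, 0.85 and 0.95 (adjusted p = 0.00372, 0.0042 and 0.00407), and 0.80, 0.98 and 1.17 without vector replicate 1. In fatty acid synthesis and lipid droplets, 8 of the 23 tested members were called higher and 0 lower (16 and 0 without vector replicate 1, 5 and 0 after median ratio scaling, 2 to 4 higher with vector 2, vector 3, HIF1α-ko 2 or HIF1α-ko 3 left out), and again no member was lower at an unadjusted p under 0.05. Over all genes, 1136 of 11731 were higher without vector replicate 2, so the 2 members left there are not above that share. CPT1A, which admits fatty acids to mitochondria for oxidation and so works against synthesis, was at 5.86, 5.91 and 6.11 TPM in vector and 12.2, 14.4 and 14.3 TPM in HIF1α-ko (log2 fold change 1.07, SE 0.14, adjusted p = 0.000583, and 1.06 without vector replicate 1), without a gap for vector replicate 1. ACSL1, an acyl-CoA synthetase, was at 50.4, 20.6 and 20.3 TPM in vector and 53.4, 87.5 and 75.7 TPM in HIF1α-ko (log2 fold change 1.32, SE 0.31, adjusted p = 0.01005, and 1.74 without vector replicate 1).

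Protein and organelle turnover followed. In the autophagy list, 11 of the 34 tested members were called higher and 0 lower (13 and 2 without vector replicate 1, 8 and 1 after median ratio scaling, 5 to 6 higher with vector 2, vector 3, HIF1α-ko 2 or HIF1α-ko 3 left out). WIPI1, which reads lipids on forming autophagosomes, was at 125, 57.1 and 54.9 TPM in vector and 220.2, 280.5 and 271 TPM in HIF1α-ko (log2 fold change 1.79, SE 0.25, adjusted p = 0.000633, and 2.17 without vector replicate 1). ATG101, of the initiating kinase complex, was at 25.7, 27.4 and 24.98 TPM in vector and 46.9, 52.9 and 61.99 TPM in HIF1α-ko (log2 fold change 1.01, SE 0.14, adjusted p = 0.000768, and 1.01 without vector replicate 1). TFEB, a transcription factor of lysosome genes, was at 2.85, 4.07 and 3.77 TPM in vector and 6.56, 6.43 and 6.55 TPM in HIF1α-ko (log2 fold change 0.73, SE 0.15, adjusted p = 0.005801, and 0.61 without vector replicate 1). Of the lysosomal proteins, 13 of the 39 tested members were called higher and 2 lower (22 and 3 without vector replicate 1, 4 and 3 after median ratio scaling, 8 higher with HIF1α-ko 2 or HIF1α-ko 3 left out). CTSF, a cathepsin, was at 54.2, 59.8 and 51.9 TPM in vector and 84.3, 92.95 and 89.4 TPM in HIF1α-ko (log2 fold change 0.68, SE 0.11, adjusted p = 0.001401, and 0.66 without vector replicate 1). Of the proteasome subunits, 12 of the 34 tested members were called higher and 1 lower (16 and 2 without vector replicate 1, 7 and 1 after median ratio scaling, 6 to 7 higher with vector 2, vector 3 or HIF1α-ko 3 left out), led by PSMB4, PSMB5 and PSMB7 with log2 fold changes of 0.53, 0.68 and 0.59, or 0.60, 0.73 and 0.69 without vector replicate 1. After median ratio scaling PSMB7 kept its call (adjusted p = 0.03595) and PSMB4 and PSMB5 did not (adjusted p = 0.06997 and 0.0516).

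Clock genes were called lower more often than higher. In the circadian clock list, 0 of the 18 tested members were called higher and 5 lower (0 and 7 without vector replicate 1, 0 and 6 after median ratio scaling), with a relative median of -0.42, or -0.47 without vector replicate 1. Limma called 0 clock genes higher, and 3 had an unadjusted p under 0.05 in that direction. BHLHE41 and BHLHE40, repressors of the clock, were at 21.1, 27.8 and 36.7 TPM in vector and 7.18, 6.55 and 6.496 TPM in HIF1α-ko (log2 fold change -1.90, SE 0.21, adjusted p = 0.000201, and -2.09 without vector replicate 1) and at 844, 853 and 836 TPM in vector and 539, 586 and 532 TPM in HIF1α-ko (log2 fold change -0.61, SE 0.12, adjusted p = 0.00335, and -0.61 without vector replicate 1). CIART, another clock repressor, was at 17.1, 32.2 and 27.6 TPM in vector and 12.2, 7.602 and 6.59 TPM in HIF1α-ko (log2 fold change -1.44, SE 0.27, adjusted p = 0.00322, and -1.69 without vector replicate 1), and NR1D1, the nuclear receptor REV-ERBα, at 98.4, 150.3 and 155 TPM in vector and 61.1, 48.02 and 44.5 TPM in HIF1α-ko (log2 fold change -1.36, SE 0.28, adjusted p = 0.00536, and -1.57 without vector replicate 1). Of the oxygen-dependent histone and DNA demethylases, 1 of the 17 tested members were called higher and 4 lower (2 and 7 without vector replicate 1, 1 and 6 after median ratio scaling, 1 lower with vector 2, vector 3, HIF1α-ko 2 or HIF1α-ko 3 left out), led by TET2, which oxidises methylated cytosine (2.69, 2.95 and 4.05 TPM in vector and 0.916, 1.31 and 1.14 TPM in HIF1α-ko, log2 fold change -0.99, SE 0.21, adjusted p = 0.00536, and -1.08 without vector replicate 1).

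Matrix genes went both ways. For the collagen hydroxylases and crosslinking enzymes the counts were 4 higher and 3 lower of 15 tested (5 and 3 without vector replicate 1, 1 and 3 after median ratio scaling, 2 higher with vector 2 left out, 1 lower with vector 3 or HIF1α-ko 2 left out). PLOD1, a lysyl hydroxylase, fell from 558, 699.6 and 622 TPM to 327, 276 and 264 TPM (log2 fold change -1.11, SE 0.13, adjusted p = 0.000313, and -1.19 without vector replicate 1), and its relative PLOD3 rose from 135, 109.7 and 102 TPM to 191, 197 and 189 TPM (log2 fold change 0.74, SE 0.12, adjusted p = 0.00158, and 0.86 without vector replicate 1). LOXL2, a collagen crosslinker, was at 2238, 2339 and 2285 TPM in vector and 3470, 3506 and 3153 TPM in HIF1α-ko (0.56, adjusted p = 0.00202, and 0.54 without vector replicate 1), a call lost after median ratio scaling (adjusted p = 0.0619). The collagens, laminins and matrix glycoproteins counted 9 higher and 3 lower of 33 tested (12 and 4 without vector replicate 1, 4 and 5 after median ratio scaling, 2 to 4 higher with vector 2, vector 3 or any HIF1α-ko left out, 0 to 1 lower with vector 2, vector 3 or any HIF1α-ko left out). Their relative median was -0.07, or 0.10 without vector replicate 1. COL6A3, of type VI collagen, was at 953, 510.1 and 518 TPM in vector and 1289, 1403 and 1271 TPM in HIF1α-ko (log2 fold change 1.06, SE 0.22, adjusted p = 0.00495, and 1.36 without vector replicate 1). FN1, fibronectin, was at 168, 586 and 629 TPM in vector and 130, 181 and 145 TPM in HIF1α-ko (log2 fold change -1.39, SE 0.39, adjusted p = 0.0222, and -2.00 without vector replicate 1), with vector replicate 1 close to the knockouts. Leaving out any of vector replicates 2 and 3 and HIF1α-ko replicates 1 and 3 ended the call of FN1.

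The matrix proteases counted 6 higher and 2 lower of 23 tested (10 and 3 without vector replicate 1, 1 and 2 after median ratio scaling, 2 higher with vector 2, vector 3, HIF1α-ko 2 or HIF1α-ko 3 left out). ADAMTS1, a protease that cuts proteoglycans and restrains vessels, was at 159, 328 and 329.5 TPM in vector and 58.2, 85.3 and 76.8 TPM in HIF1α-ko (log2 fold change -1.82, SE 0.24, adjusted p = 0.000567, and -2.17 without vector replicate 1). The integrins counted 1 higher and 0 lower of 11 tested (6 and 0 without vector replicate 1, 1 and 1 after median ratio scaling), so nearly all of their calls appeared with vector replicate 1 removed. Limma called 0 integrins lower, also at an unadjusted p under 0.05. The actin cytoskeleton and SRF/YAP targets counted 3 higher and 5 lower of 26 tested (7 and 6 without vector replicate 1, 2 and 5 after median ratio scaling, 3 lower with vector 2, vector 3, HIF1α-ko 2 or HIF1α-ko 3 left out). ACTB, another common reference gene, rose from 1132, 466 and 410.5 TPM to 1998, 1624 and 1675 TPM (log2 fold change 1.55, SE 0.28, adjusted p = 0.00287, and 2.00 without vector replicate 1), while ANKRD1, a YAP target, fell from 10.1, 8.57 and 8.38 TPM to 3.66, 4.14 and 4.42 TPM (log2 fold change -0.98, SE 0.16, adjusted p = 0.00161, and -0.90 without vector replicate 1). CALD1, an actin-binding protein, was at 73.7, 67.5 and 83.9 TPM in vector and 35.2, 48.7 and 28.3 TPM in HIF1α-ko (log2 fold change -1.01, SE 0.19, adjusted p = 0.00343, and -1.02 without vector replicate 1) and AXL, a receptor kinase, at 469.7, 492 and 479.9 TPM in vector and 341, 238 and 226 TPM in HIF1α-ko (log2 fold change -0.86, SE 0.17, adjusted p = 0.004403, and -0.88 without vector replicate 1). Angiogenic factors and receptors counted 1 higher and 3 lower of 17 tested (6 and 4 without vector replicate 1, 1 and 4 after median ratio scaling, 1 lower with vector 2, HIF1α-ko 2 or HIF1α-ko 3 left out). ANGPTL4, a secreted regulator of lipoprotein lipase and vessels, was at 91.5, 154 and 137 TPM in vector and 61.5, 53.1 and 55.5 TPM in HIF1α-ko (log2 fold change -1.12, SE 0.21, adjusted p = 0.00327, and -1.34 without vector replicate 1), and PDGFA, a platelet-derived growth factor chain, at 3.25, 4.17 and 3.66 TPM in vector and 6.28, 9.22 and 8.77 TPM in HIF1α-ko (log2 fold change 0.94, SE 0.20, adjusted p = 0.00634, and 0.87 without vector replicate 1).

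The count of cytokine genes called higher depended on vector replicate 1. The cytokines and chemokines counted 2 higher and 2 lower of 19 tested (13 and 1 without vector replicate 1, 2 and 2 after median ratio scaling), with 0 higher without vector replicate 2 and 0 lower without vector replicate 3. CCL20, a chemokine for T cells and dendritic cells, was at 39, 2.17 and 1.93 TPM in vector and 35.6, 70.1 and 70.2 TPM in HIF1α-ko (log2 fold change 2.99, SE 0.87, adjusted p = 0.0263, and 4.22 without vector replicate 1). The call of CCL20 was lost when any of vector replicates 2 and 3 and HIF1α-ko replicates 2 and 3 was left out, with adjusted p up to 0.109 and log2 fold changes down to 2.34. The NF-κB subunits and feedback genes counted 3 higher and 2 lower of 19 tested (6 and 2 without vector replicate 1, 1 and 2 after median ratio scaling, 1 higher with vector 2, vector 3 or any HIF1α-ko left out). RELB, a subunit of the noncanonical branch, did not depend on that library, at 39.4, 35.1 and 31.8 TPM in vector and 90.1, 104 and 103 TPM in HIF1α-ko (log2 fold change 1.46, SE 0.12, adjusted p = 3.61e-05, and 1.53 without vector replicate 1). The immediate early genes counted 4 higher and 3 lower of 27 tested (6 and 4 without vector replicate 1, 4 and 4 after median ratio scaling), of which FOSL1, a part of the factor AP-1, fell from 1225, 1233 and 1500 TPM to 625, 702 and 620.1 TPM (log2 fold change -1.02, SE 0.14, adjusted p = 0.000757, and -1.07 without vector replicate 1) and JUND, another part, rose from 42.7, 45.4 and 47.7 TPM to 63.7, 71.3 and 70.4 TPM (log2 fold change 0.59, SE 0.12, adjusted p = 0.00399, and 0.55 without vector replicate 1). The interferon-stimulated genes counted 5 higher and 2 lower of 26 tested (11 and 1 without vector replicate 1, 4 and 2 after median ratio scaling), and their relative median was 0.02, or 0.19 without vector replicate 1. IRF1, an interferon regulatory factor, was at 4.39, 1.54 and 1.82 TPM in vector and 6.12, 9.02 and 10 TPM in HIF1α-ko (log2 fold change 1.45, SE 0.28, adjusted p = 0.00343, and 1.78 without vector replicate 1). The MHC class I list counted 4 higher and 2 lower of 18 tested (9 and 3 without vector replicate 1, 0 and 2 after median ratio scaling, 2 higher with vector 3 left out).

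The TGF-beta, BMP and ID genes counted 4 higher and 1 lower of 24 tested (7 and 0 without vector replicate 1, 3 and 1 after median ratio scaling, 2 higher with vector 3 or HIF1α-ko 3 left out), among them TGFBR2, a TGF-beta receptor, at 20.1, 6.86 and 7.98 TPM in vector and 32.9, 46.4 and 24.3 TPM in HIF1α-ko (log2 fold change 1.59, SE 0.35, adjusted p = 0.00688, and 2.03 without vector replicate 1). The Notch list counted 3 higher and 1 lower of 13 tested (3 and 1 without vector replicate 1, 1 and 4 after median ratio scaling, 1 higher with vector 3, HIF1α-ko 2 or HIF1α-ko 3 left out), led by HES4, a target of the pathway, at 0.363, 0.191 and 0.0999 TPM in vector and 0.962, 1.56 and 1.68 TPM in HIF1α-ko (log2 fold change 0.97, SE 0.22, adjusted p = 0.00862, and 1.05 without vector replicate 1). Of the neural and glioma stem cell markers, 0 of the 14 tested members were called higher and 1 lower (2 and 1 without vector replicate 1, 0 and 2 after median ratio scaling), and limma called 0 higher with 1 at an unadjusted p under 0.05. EZH2, a histone methyltransferase, was the 1 that fell, from 6.79, 6.73 and 7.95 TPM to 3.33, 3.29 and 3.85 TPM (log2 fold change -0.86, SE 0.16, adjusted p = 0.00331, and -0.89 without vector replicate 1). FUT4, which makes the marker CD15, was at 1.36, 1.21 and 1.83 TPM in vector and 1.27, 1.52 and 1.8 TPM in HIF1α-ko (log2 fold change 0.04, adjusted p = 0.893), and PROM1, the marker CD133, was at 0.625, 0.0418 and 0.0927 TPM and 0.103, 0.118 and 0.218 TPM, too low to be tested. The aldehyde dehydrogenases counted 4 higher and 1 lower of 14 tested (5 and 0 without vector replicate 1, 4 and 1 after median ratio scaling, 2 higher with vector 2 left out), with ALDH4A1, of proline breakdown, at 1.97, 1.92 and 1.15 TPM in vector and 4.31, 4.05 and 4.02 TPM in HIF1α-ko (log2 fold change 0.95, SE 0.17, adjusted p = 0.00272, and 1.03 without vector replicate 1).

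The ABC transporters counted 4 higher and 2 lower of 23 tested (6 and 2 without vector replicate 1, 3 and 3 after median ratio scaling). ABCG2, a drug efflux pump the study's title names, was at 0.269, 0.319 and 0.459 TPM in vector and 0.224, 0.521 and 0.409 TPM in HIF1α-ko, with overlapping groups, and was under the limit for testing. ABCB6, a porphyrin transporter, fell from 14.9, 23.2 and 23.3 TPM to 5.04, 6.89 and 5.78 TPM (log2 fold change -1.62, SE 0.26, adjusted p = 0.00141, and -1.82 without vector replicate 1). BAX, which opens the outer mitochondrial membrane in apoptosis, was at 107, 135 and 124 TPM in vector and 154, 154 and 167 TPM in HIF1α-ko (0.38, adjusted p = 0.0469, and 0.29 without vector replicate 1), a call lost without vector replicate 1, 3 or any HIF1α-ko library and after median ratio scaling (adjusted p = 0.375). The metallothioneins counted 2 higher and 2 lower of 7 tested (2 and 2 without vector replicate 1, 1 and 2 after median ratio scaling). MT1X was at 920.2, 938 and 786 TPM in vector and 458, 469.9 and 451 TPM in HIF1α-ko (log2 fold change -0.93, SE 0.13, adjusted p = 0.000574, and -0.90 without vector replicate 1) and MT3 at 1.64, 3.32 and 4.14 TPM in vector and 0.291, 0 and 0.457 TPM in HIF1α-ko (log2 fold change -1.65, SE 0.24, adjusted p = 0.000769, and -1.93 without vector replicate 1), and both fell. Iron handling counted 1 higher and 0 lower of 12 tested (4 and 2 without vector replicate 1, 0 and 2 after median ratio scaling). The antioxidant and glutathione genes counted 6 higher and 1 lower of 24 tested (5 and 1 without vector replicate 1, 2 and 2 after median ratio scaling, 2 to 3 higher with vector 2, vector 3, HIF1α-ko 2 or HIF1α-ko 3 left out), of which PRDX1, a peroxiredoxin, was at 192, 191 and 193 TPM in vector and 330, 640.2 and 638 TPM in HIF1α-ko (log2 fold change 1.41, SE 0.24, adjusted p = 0.00192, and 1.41 without vector replicate 1).

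How close vector replicate 1 came to HIF1α-ko differed between groups of genes. Its position was scaled for each gene so that 0 is the mean of vector replicates 2 and 3 and 1 the mean of HIF1α-ko, and read over the genes called when it was left out. The median position was 0.52 over 2828 higher genes and 0.49 over 1366 lower genes, and 51.3% and 49.2% of them lay past the middle. For vector replicate 2, treated the same way, the medians were -0.04 over 1136 higher and 0.03 over 678 lower genes, with 6.60% and 11.2% past the middle. For vector replicate 3 they were -0.08 over 1069 and -0.16 over 579 genes, with 5.43% and 3.45%. For vector replicates 2 and 3 the point 0 includes vector replicate 1, and the genes were called with that library in the fit. That choice favours genes in which the vector libraries lie close together, so these positions are not a like measure for vector replicate 1. By list, vector replicate 1 stayed near the other vector libraries in glycolysis (0.20, 19 genes), glycogen metabolism (0.16, 7 genes) and the respiratory chain (0.19, 34 genes). It lay near HIF1α-ko in cholesterol synthesis (0.87, 22 genes), fatty acid synthesis (0.94, 16 genes) and the integrins (0.89, 6 genes), and past it in the cytokines (1.26, 14 genes). No test of these differences between lists was run.

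**Figure D4:**
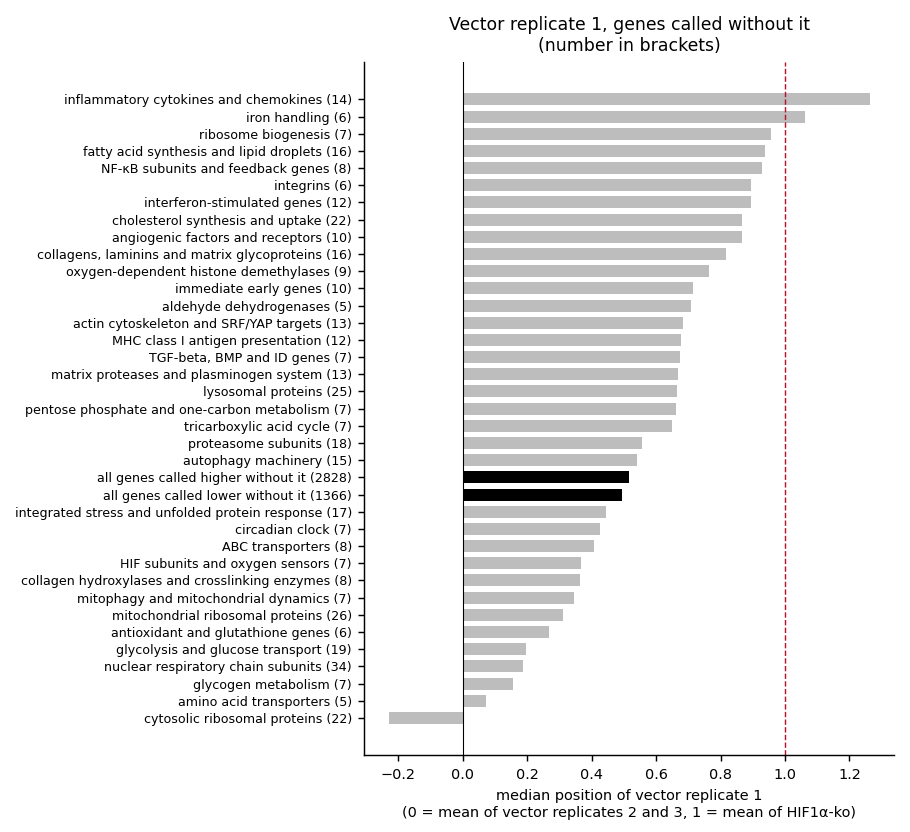
Median position of vector replicate 1 (x axis, where 0 is the mean of vector replicates 2 and 3 and the dashed line at 1 the mean of HIF1α-ko) over the genes of each list that were called without it, their number in brackets. Black bars give all genes called higher (0.52) and lower (0.49), and the bars of glycolysis and the respiratory chain are among the shortest.

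A comparison that shares no library with this one asked what HIF1α loss does in cells that already lack HIF2α. It set HIF1α/2α-ko against HIF2α-ko and was added after the files had been seen. The 2 comparisons share the model and its estimate of each gene's spread, so the overlaps of their calls are not independent. The added comparison called 3933 genes higher (33.5%) and 1509 lower (12.9%), and its all-gene median was 0.23. Of the 1257 genes in the stricter higher set, 787 (62.6%) were also called higher there and 47 lower, and the 787 together with all others higher in both made up 29.1% of its higher calls. Of the 950 in the stricter lower set, 410 (43.2%) were also called lower and 92 higher, and genes lower in both were 28.9% of its lower calls. The median log2 fold change there was 0.79 over the first set and -0.39 over the second. Over all tested genes 67.1% had the same sign in both comparisons. HIF1A did not pass in it, at 108, 76.1 and 76.7 TPM in HIF2α-ko and 89.2, 67.8 and 69.4 TPM in HIF1α/2α-ko, a log2 fold change of -0.19 (adjusted p = 0.453), so the transcript alone does not separate these 2 groups.

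Of the 15 largest falls, 13 were called lower there too. BNIP3 changed there by -2.91 (adjusted p = 1.46e-06) on the log2 scale, GYS1 by -2.68 (adjusted p = 4.46e-07), FAM162A by -2.87 (adjusted p = 6.66e-06) and PFKFB4 by -1.96 (adjusted p = 4.11e-06). The exceptions were PLK1, at -0.03 (adjusted p = 0.968), and LCN2, which was called higher at 1.80 (adjusted p = 0.0108), with 19.2, 5.9 and 6.103 TPM in HIF2α-ko and 35.2, 31.1 and 34.9 TPM in HIF1α/2α-ko. Of the 15 largest rises, 4 were called higher there, SEPHS2 at 2.36 (adjusted p = 0.000665), PSAT1 at 2.24 (adjusted p = 0.000268), SDF2L1 at 1.10 (adjusted p = 0.02499) and FIBIN at 1.08 (adjusted p = 0.0285). With the replicate number as a block, CMKLR2 and PRNP passed as well (adjusted p = 0.0141 and 0.00143), which made 6. Pairing by number was not shown for replicates 2 and 3, so calls gained with the block rest on an assumed pairing. PI3 was called lower, at -2.29 (adjusted p = 0.0154), with 86.04, 83.6 and 93.5 TPM in HIF2α-ko and 12.5, 18.8 and 21.2 TPM in HIF1α/2α-ko. ALDH1A3 did not pass, at 0.37 (adjusted p = 0.682), nor did CCN4, at -0.11 (adjusted p = 0.7295).

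**Figure D5:**
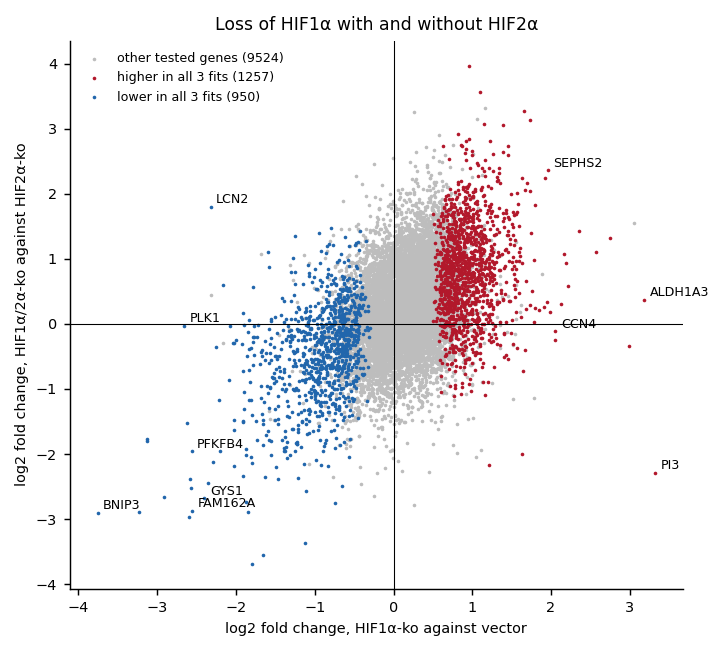
Log2 fold change of HIF1α/2α-ko against HIF2α-ko (y axis) against that of HIF1α-ko against vector (x axis) for the 11731 tested genes, with the 1257 genes of the stricter higher set in red and the 950 of the stricter lower set in blue. The 2 axes share no library, most of the largest falls lie at the lower left, and PI3 at the lower right and LCN2 at the upper left were called in opposite directions.

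The lists are read here beside the 33.5% higher and 12.9% lower of all genes in that comparison. Glycolysis counted 1 higher and 18 lower of 25 with a relative median of -1.23, close to its own value against vector, and glycogen metabolism 2 higher and 5 lower of 11. The stress response list counted 13 higher and 3 lower of 27 and the autophagy list 18 higher and 0 lower of 34. Cholesterol synthesis counted 4 higher and 3 lower of 24 and the circadian clock 5 higher and 5 lower of 18. The collagen list counted 1 higher and 13 lower of 33, the collagen hydroxylases 2 higher and 10 lower of 15 and ribosome biogenesis 28 higher and 1 lower of 32. The respiratory chain subunits counted 22 higher and 3 lower of 74, with a relative median of -0.01, and the lysosomal proteins 5 higher and 5 lower of 39, with one of -0.29. The proteasome counted 25 higher and 0 lower of 34 and the one-carbon list 12 higher and 0 lower of 16. The differences between the 2 comparisons were not tested for lists.

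Set directly against HIF2α-ko, HIF1α-ko had 2084 genes called higher (17.8%) and 865 lower (7.37%). With the replicate number as a block over the 3 knockout groups, the counts were 4438 and 1489. This comparison uses the same HIF1α-ko libraries as the one against vector, so its values are only set beside it. BNIP3 was at 982, 1036 and 1074 TPM in HIF2α-ko, and the log2 difference of HIF1α-ko from it was -3.83 (adjusted p = 3.33e-07). The corresponding values were -3.37 (adjusted p = 3.21e-07) for PFKFB4, -2.59 (adjusted p = 3.33e-07) for GYS1 and -3.66 (adjusted p = 9.26e-06) for ITIH1. In all, 12 of the 15 falls were called lower and 9 of the 15 rises higher. PLK1 was not called, at -0.80 (adjusted p = 0.265), but passed with the block (adjusted p = 0.003504), as did APOLD1 (0.0138, against 0.0613 without it) and HOXA4 (0.0242, against 0.0531). Of the rises that were not called, ZC3H11A, PSAT1 and HPS6 passed with the block (adjusted p = 0.0124, 0.0006496 and 0.0463). All of these calls gained with the block rest on the same assumed pairing. EPAS1 was higher in HIF1α-ko by 1.31 (adjusted p = 8.36e-05), with 87.6, 118 and 116 TPM in HIF2α-ko. CCN4 was higher by 3.66 (adjusted p = 1.58e-06), at 0.741, 0.977 and 0.999 TPM in HIF2α-ko, and ALDH1A3 by 3.30 (adjusted p = 0.00462), at 8.27, 6.77 and 8.67 TPM. CCL20 did not pass, at -0.57 (adjusted p = 0.644). Beside the 17.8% and 7.37% of all genes, glycolysis counted 0 higher and 19 lower of 25 and the collagen list 6 and 2 of 33. Cholesterol synthesis counted 0 and 2 of 24, the proteasome 1 and 1 of 34, the antioxidant genes 0 and 3 of 24 and the respiratory chain 10 and 5 of 74. The stress response list counted 12 and 1 of 27, autophagy 12 and 1 of 34 and the lysosomal proteins 14 and 0 of 39. The excess of higher calls that the cholesterol, proteasome, antioxidant and respiratory chain lists had against vector was thus not seen against HIF2α-ko.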

How the data were processed

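The deposited table holds TPM values, which the authors made from poly(A)-selected mRNA libraries. The submitters' processing notes name FastQC 0.11.2, Trimmomatic 0.36, HISAT2 2.0 and bedtools 2.26.0 with GRCh38. The counting tool, its annotation and its strand setting are not given in the sources used here, and without strand an overlapping antisense gene cannot be told apart. The deposited TPM columns each add up to 999955 to 999982, so the depth per library is unknown and limits the precision of low genes most. Columns were matched to samples by their labels.

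Log2(TPM + 1) values of genes with at least 1 TPM in at least 3 of 12 libraries went into limma 3.58.1 (R 4.3.3), 4 groups in 1 model with a mean-variance trend, p adjusted within each contrast by the Benjamini-Hochberg method at 0.05. The steps were tested on simulated data. The comparison of HIF1α/2α-ko with HIF2α-ko and the interaction term were added after the data were seen. Median ratio scaling divides each library by the median of its ratios to the geometric mean library. Alternatives were the pseudocount, the filter, the scaling, each library left out, 2 groups only, no trend and a replicate block.

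Same-numbered HIF1α-ko and HIF2α-ko libraries deviated together (r = 0.472, 0.243 and 0.199), as did HIF2α-ko and HIF1α/2α-ko (r = 0.463, 0.227 and 0.222). Replicate 2 of one group and replicate 3 of the other did so as well (r = 0.229 and 0.158, then 0.257 and 0.22). Replicate 1 went against replicates 2 and 3 of the other group (r = -0.356 to -0.269, then -0.364 to -0.296). The values set replicate 1 apart and do not show that replicates 2 and 3 are paired by number. The number was used as a block in an alternative fit, and blocked values are printed where a call changed.

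The members and the 39 gene lists were chosen with earlier results of these data known. Genes were named by rule, as the 15 largest falls and 15 largest rises called in all 3 fits, without overlap, with a higher group mean of at least 5 TPM and not read-through genes, up to 4 members per list by smallest p, 8 genes of prior interest and 6 genes where vector replicate 1 differed most. The results of 3 genes that the rule names are not reported here, and list members whose call was lost with 1 library or by scaling are mostly left to the counts. SNAPC1, SGPP1, ENSG00000258989, COL1A2 and the cell type markers were named after their values were seen. Symbols were matched for 20148 genes in the reference table and 76 in GENCODE 29, and 39 stayed without one.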

Additional observations from a re-analysis of the deposited data

Results flagged for a closer look

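For the 15 largest falls and 15 largest rises, the effect of HIF1α loss in HIF2α-ko cells was compared with that in vector cells by the interaction term of the 4-group limma fit, a comparison added after the data were seen. It passed for 7 of the 30 genes, and for the same 7 as well as 6 more (13 in all) without vector replicate 1. The 30 genes were chosen for large differences between HIF1α-ko and vector, so the interaction is not independent of the choice. The log2 interaction (effect in HIF2α-ko less effect in vector) was -5.61 for PI3 (adjusted p = 0.00283), 4.12 for LCN2 (adjusted p = 0.00282) and 2.63 for PLK1 (adjusted p = 0.0259). It was -2.17 for CCN4 (adjusted p = 0.00187), -1.80 for HSPA1B (adjusted p = 0.0335), -1.63 for PRNP (adjusted p = 0.00539) and 1.36 for PPAN (adjusted p = 0.00439). PI3 and LCN2 changed sign between the backgrounds. PPAN fell in both, by less in HIF2α-ko cells, and PLK1, CCN4, HSPA1B and PRNP did not pass in the second comparison without the replicate block. Over all 11731 tested genes the interaction called 1552 higher and 862 lower, or 2051 and 1513 without vector replicate 1.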

How the results depend on the processing

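Against vector, the count of higher genes (2031) was 1285 after median ratio scaling, 480 with a log2 limit of 1 and 1010 to 2828 with 1 library left out. The count of lower genes (1029) was 1545 after median ratio scaling, 2152 with that scaling and no vector replicate 1, 2064 with quantile normalization and no vector replicate 1, 334 with the log2 limit and 542 to 1366 with 1 library left out. Against HIF2α-ko, the higher count (2084) was 1034 after median ratio scaling, 1345 after quantile normalization, 4438 with the replicate block over the 3 knockout groups, 412 with the log2 limit and 847 to 2247 with 1 library left out. The lower count (865) was 1312, 1489 with that block, 352 and 574 to 875 under the same settings except quantile normalization. In HIF1α/2α-ko against HIF2α-ko, 1684 of 3933 higher and 476 of 1509 lower genes passed the log2 limit, and the lower count was 2558 after median ratio scaling and 2614 after quantile normalization. The difference in the share of the total TPM in mitochondrially encoded genes ran from -0.877 to 0.448 percentage points with 1 library left out, and was above 0 without vector replicate 1. The cause of these changes was not tested.

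Between vector and HIF1α-ko the replicate numbers were not treated as pairs (r = 0.163, -0.0101 and 0.0998). With the number as a block the counts were 2672 higher and 1296 lower, and it changed no call of a gene named as called against vector.
Of 100 called genes named in the text, none turned its direction under any alternative run, and the call held for 95 after median ratio scaling, 99 after quantile normalization, 97 without the filter, 99 with a pseudocount of 0.1 and all 100 with the block. With 1 library left out it held for 92 to 99. Many of these genes were named because their calls held under such changes, so these counts were in part fixed by the choice. Over all genes, 1285 of 2031 higher calls and all 1029 lower calls held after median ratio scaling. The calls of 837 higher and 488 lower genes held whichever of the 6 libraries was left out. Of the 6 tested genes named without a call, FUT4 turned to -0.078 after median ratio scaling, -0.17 after quantile normalization, -0.12 and -0.27 with these and no vector replicate 1, and ran from -0.037 to 0.14 with 1 library left out. ENSG00000144785 turned to 0.32 with a pseudocount of 0.1 and ran from -1.34 to 0.59 with 1 library left out. MT-ATP8 ran from -1.85 to 0.29 with 1 library left out, the highest without vector replicate 1, and was 0.067 and 0.19 with median ratio scaling or quantile normalization added. MT-ATP6 ran from -0.71 without vector replicate 3 to 3.46 without vector replicate 1. Depth is unknown, so how far it limits the low genes cannot be given.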
